A study of Mus musculus with 9 samples.

Results

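The comparison described here is that of Atg7-deficient livers carrying the p62 S351A knock-in with floxed control livers, over all genes. It uses 6 of the 9 mouse livers of the series, chosen by their sample titles: 3 of the genotype Atg7flox/flox;Alb-Cre;p62S351A/p62S351A (S351A) and 3 of the genotype Atg7flox/flox (cont.). The remaining 3 livers, Atg7flox/flox;Alb-Cre with wild-type p62 (Atg7-KO), share the same controls and are quoted only beside the values of S351A. All mice were 3 months old on a C57BL/6 background, and all carried floxed Atg7 alleles.

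The cont. mice had no Cre, so the groups differ in Cre, in hepatocyte Atg7 and in both p62 alleles at once, and the parts of these 3 cannot be told apart in this comparison. Alb-Cre drives recombination from the albumin promoter, mainly in hepatocytes, so cells that do not recombine keep Atg7, whereas the knock-in is carried by every cell. The genotype entries of S351A replicates 2 and 3 name the second allele as S352A and S353A, while their titles name S351A on both alleles. The titles were followed.

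Poly(A) RNA of whole liver was sequenced as 75-base single-end reads, and levels are given as counts scaled to a common library total (CPM) after adjustment by the trimmed mean of M-values (TMM). The S351A libraries were the shallowest of the series, with 713841 to 792372 counts, against 1875325 to 15426575 in cont. and 1945483 to 3675058 in Atg7-KO. The floor of 3 counts was therefore 3.45 to 3.73 CPM in S351A and 0.269 to 1.91 CPM in cont. The 20 genes with the most counts held 15.4 to 17.7% of an S351A library and 21.5 to 30.5% of a cont. library. By Xist and Y-linked RNA, cont. replicate 2, S351A replicates 2 and 3 and Atg7-KO replicates 2 and 3 were female and the others male. The sexes were thus not balanced (2 of 3 males in cont. and 1 of 3 in S351A, as in Atg7-KO).

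p62, encoded by Sqstm1, is a selective autophagy receptor that gathers ubiquitinated cargo into bodies and is itself degraded by autophagy, which needs the E1-like enzyme ATG7. KEAP1 is the adaptor of a ubiquitin ligase that keeps the transcription factor NRF2 (Nfe2l2) low, and phosphorylation of p62 at Ser351 raises its affinity for KEAP1, so that replacing this serine by alanine weakens the interaction. NRF2 binds antioxidant response elements in genes of glutathione synthesis, detoxification and NADPH supply. Livers that lack hepatocyte Atg7 are known to accumulate p62, to switch on NRF2 and to become enlarged and injured. The question was how much of the floxed control transcriptome is kept or lost when autophagy is absent and p62 binds KEAP1 less well.

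The promoters shown belong to genes described further on, 3 of NRF2 and 3 of interferon signalling, which were chosen after their values were seen. Each run is the 250 bases before the RefSeq start of the gene on build GRCm38.p6, read 5′ to 3′ on the strand of the gene, with capitals for a match to the letters searched. The first 3 hold the core letters of the antioxidant response element, TGACNNNGC or TGAGNNNGC, searched on both strands.
Srxn1 (chr2:152105274-152105523, plus strand): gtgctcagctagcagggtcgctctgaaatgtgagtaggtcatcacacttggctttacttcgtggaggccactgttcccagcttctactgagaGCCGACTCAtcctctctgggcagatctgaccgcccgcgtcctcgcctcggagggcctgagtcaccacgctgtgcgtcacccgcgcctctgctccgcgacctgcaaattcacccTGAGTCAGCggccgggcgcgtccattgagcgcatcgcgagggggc
Slc7a11 (chr3:50443614-50443863, minus strand): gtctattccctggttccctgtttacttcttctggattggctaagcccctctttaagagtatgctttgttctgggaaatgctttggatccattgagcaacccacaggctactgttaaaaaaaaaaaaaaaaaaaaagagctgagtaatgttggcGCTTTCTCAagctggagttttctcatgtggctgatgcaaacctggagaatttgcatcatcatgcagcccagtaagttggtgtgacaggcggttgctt
G6pdx (chrX:74428881-74429130, minus strand): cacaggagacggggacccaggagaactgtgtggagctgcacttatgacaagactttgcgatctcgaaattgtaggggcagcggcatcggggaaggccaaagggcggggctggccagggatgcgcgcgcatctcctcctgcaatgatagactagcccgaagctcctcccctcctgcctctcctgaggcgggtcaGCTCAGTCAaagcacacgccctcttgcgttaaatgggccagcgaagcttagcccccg

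The second 3 hold GAAA, 2 bases of any kind and GAAA again, the core letters of the interferon-stimulated response element, searched on both strands as well.
Rsad2 (chr12:26456453-26456702, minus strand): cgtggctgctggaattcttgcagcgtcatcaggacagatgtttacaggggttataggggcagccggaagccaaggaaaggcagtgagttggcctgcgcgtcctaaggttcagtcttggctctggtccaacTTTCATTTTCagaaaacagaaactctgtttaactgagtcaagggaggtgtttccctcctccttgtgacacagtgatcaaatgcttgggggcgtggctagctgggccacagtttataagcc
Ifit1 (chr19:34640639-34640888, plus strand): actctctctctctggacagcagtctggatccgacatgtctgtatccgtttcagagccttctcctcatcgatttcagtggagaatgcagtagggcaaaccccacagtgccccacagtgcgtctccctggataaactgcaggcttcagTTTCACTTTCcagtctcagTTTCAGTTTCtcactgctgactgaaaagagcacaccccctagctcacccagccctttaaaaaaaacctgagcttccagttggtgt
Isg15 (chr4:156200819-156201068, minus strand): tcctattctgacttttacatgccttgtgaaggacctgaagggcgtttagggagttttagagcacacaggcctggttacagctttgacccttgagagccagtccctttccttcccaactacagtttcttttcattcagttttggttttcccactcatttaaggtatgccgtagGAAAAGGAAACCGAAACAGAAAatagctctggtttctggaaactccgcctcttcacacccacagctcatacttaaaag

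Letters of the antioxidant response element were found in 25.7% of all 27025 genes with such a RefSeq window and in 30% of the 8575 tested genes that matched by symbol. Among the NRF2 list they were in 19 of 46 windows (41.3%), and in 7 of the 24 of members called higher (29.2%). Letters of the interferon element were in 3.46% of all windows, in 13 of 26 windows of the interferon-stimulated list (50%) and in 11 of the 21 of members called higher (52.4%). Srxn1 has 2 matches, Ifit1 has 2, and Isg15 has 3, each overlapping the next. The Rsad2 window holds letters of the antioxidant element too, apart from its interferon match, and none of the 46 NRF2 windows holds the interferon letters. A match is only a run of letters, and the antioxidant core shares letters with the AP-1 motif.

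Of 11199 genes tested, 3208 were called, that is, had a Benjamini-Hochberg adjusted p under 0.05 in edgeR's quasi-likelihood test and a fold change above 1.5 (unadjusted, 4593 genes had a p under 0.05). These made 28.6% of the tested genes: 1748 were higher in S351A (15.6%) and 1460 lower (13%). In 4251 genes (38%) the 3 S351A libraries did not overlap with the 3 cont. libraries. Large changes were mostly increases, with 801 genes called higher and 146 called lower by more than 4-fold, and 193 and 19 by more than 16-fold. The median log2 fold change over all tested genes was −0.03. In bulk liver, fewer cells of a type and less RNA per cell cannot be told apart, and this holds for every result that follows. Scaling decided the balance of directions: 54.5% of the calls were higher with TMM, but 87.4% (3541 higher and 510 lower) with total library size, which moved the median of all genes to 0.47, and 79.5% (2775 higher and 717 lower) when the 20 top genes were left out of the library sizes, with a median of 0.30. Without S351A replicate 1 the called genes numbered 2098 and those lower 892, and without S351A replicate 2 there were 2171 called and 887 lower.

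**Figure D1:**
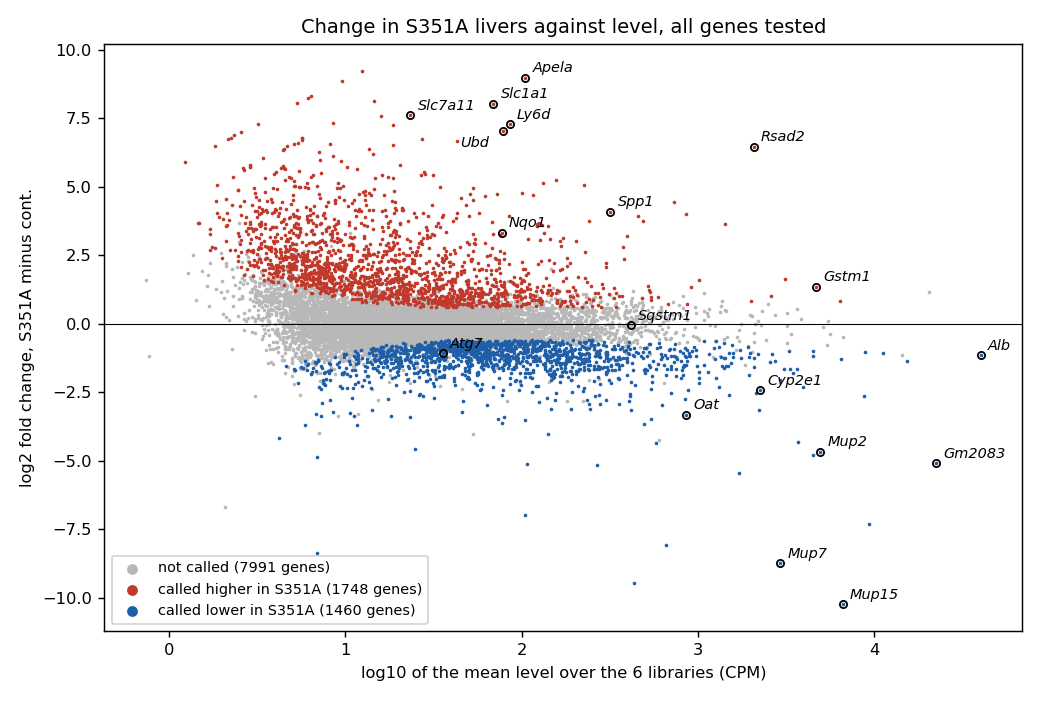
Log2 fold change of S351A against cont. (vertical axis) by the log10 of the mean level over the 6 libraries in CPM (horizontal axis), 1 point for each of the 11199 tested genes. The 1748 genes called higher lie above 0 and the 1460 called lower below it, and Mup7 and Mup15, of the major urinary proteins, are labelled among the largest decreases.

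Atg7 (chr6:114643097-114860614, mm10) was at 45.1, 57.8 and 42.4 CPM in cont. and at 21.8, 24.8 and 22.2 CPM in S351A, with a log2 fold change of −1.07 ± 0.21 (SE) and an adjusted p of 0.00319 by edgeR. All S351A libraries lay below all cont. libraries, as did the Atg7-KO libraries at 30.2, 28 and 28.4 CPM. The deposited level sums the whole gene, over deleted and undeleted exons and over all cells of the liver. With total library size the log2 fold change was −0.59 and the call was lost (adjusted p = 0.0639).

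The 3 genes of the p62, KEAP1 and NRF2 axis itself were not called. Sqstm1 (chr11:50199366-50210827) was at 406, 477 and 387 CPM in cont. and 407, 380.0 and 437 CPM in S351A, with a log2 fold change of −0.05 ± 0.21 and an adjusted p of 0.875. Keap1 (chr9:21229730-21239361) was at 60.4, 81.0 and 68.5 CPM in cont. and 63.2, 99.3 and 58.0 CPM in S351A (0.07 ± 0.23, adjusted p = 0.862). For both the groups overlapped, and the sign of both fold changes varied between settings, for Sqstm1 up to 0.43 with total library size and for Keap1 down to −0.24 without S351A replicate 2. Nfe2l2 was at 84.5, 105 and 145 CPM in cont. and 36.8, 52.2 and 97.5 CPM in S351A (−0.85 ± 0.34, adjusted p = 0.0793), with S351A replicate 3 inside the range of cont. With the replicate number as a block its log2 fold change was −0.88 and its adjusted p 0.0209, and without S351A replicate 3 it was called as well (log2 fold change −1.36, adjusted p = 0.0109). With sex as a term it was −1.06 (adjusted p = 0.0376) and with no filter on low counts −0.96 (adjusted p = 0.00834), called in both.

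Of 53 NRF2 targets, the genes of glutathione, detoxification and NADPH supply that were tested, 27 were called higher and 3 lower, with a median log2 fold change of 0.72 beside −0.03 over all genes. That is 50.9% of the list higher and 5.66% lower, where 15.6% and 13% of all genes were. In the Atg7-KO livers, against the same controls, the median of the list was 1.22. Leaving out single libraries left 20 to 28 members called higher and 2 to 5 lower, the 5 without cont. replicate 2. The median was 1.21 with total library size, where 35 were higher, and 0.50 with 10 counts required in every library, where 43 were tested and 19 were higher.

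Nqo1, a quinone reductase, was at 12.7, 21.5 and 8.51 CPM in cont. and at 114, 170.1 and 135 CPM in S351A (log2 fold change 3.33 ± 0.35, adjusted p = 6.22e-05), beside 225, 364 and 328 CPM in Atg7-KO. Every S351A library was far above the highest control. Srxn1, which reduces overoxidised peroxiredoxins and whose promoter is printed above, was at 64.2, 58.8 and 47.4 CPM in cont. and 1012, 959.9 and 603 CPM in S351A (3.92 ± 0.30, adjusted p = 8.39e-06). Pgd, the phosphogluconate dehydrogenase of the pentose phosphate pathway, was at 49.6, 43.3 and 50.6 CPM in cont. and 318, 228 and 168 CPM in S351A (2.31 ± 0.25, adjusted p = 7.55e-05), with Atg7-KO at 431, 476 and 460.3 CPM. In each of these 3 genes the groups were fully apart. G6pdx, which feeds the same pathway, rose from 1.27, 4.58 and 4.75 CPM to 26.4, 31.0 and 12.3 CPM (2.51 ± 0.39, adjusted p = 6.49e-04).

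Glutathione transferases differed among themselves. Gstm1 was at 2828, 2328 and 2736 CPM in cont. and 6365, 6627 and 7137 CPM in S351A (log2 fold change 1.35 ± 0.25, adjusted p = 0.00192), and Gstm3 at 125, 82.0 and 93.6 CPM against 1544, 1739.7 and 1523 CPM (4.00 ± 0.27, adjusted p = 3.38e-06). Both rose in all 3 livers. Mgst1, a microsomal transferase of the same list, fell from 4372, 4347 and 6315 CPM to 1434, 1126 and 2262 CPM (−1.64 ± 0.31, adjusted p = 0.00216), and Gstm6 fell from 125, 176 and 204 CPM to 57.4, 60.8 and 90.1 CPM (−1.28 ± 0.25, adjusted p = 0.00254). The Gstm genes are paralogs, so reads from their similar stretches may be split between them. Cyp2a5, a coumarin hydroxylase, rose from 1668, 2059 and 861 CPM to 4232, 5040.4 and 4886 CPM (1.63 ± 0.33, adjusted p = 0.00335).

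Slc7a11, the cystine carrier that supplies glutathione synthesis, held at most 2 counts in each cont. library and was at 118, 13.7 and 7.40 CPM in S351A (adjusted p = 7.26e-04), beside 227, 133 and 134 CPM in Atg7-KO. The S351A livers differed strongly, replicate 1 being far above the others, and without it the log2 fold change of Slc7a11 went from 7.61 to 5.46. Without cont. replicate 3 it was 6.52 and without cont. replicate 2 it was 8.62, and with so few control counts its size depends on the fit. Cbr3, a carbonyl reductase, was at 0.636, 1.41 and 0.627 CPM in cont. and 105, 77.0 and 74.0 CPM in S351A (6.66 ± 0.35, adjusted p = 1.63e-06). Gpx2, a glutathione peroxidase, had 1 count over the cont. libraries and was at 11.5, 13.7 and 8.64 CPM in S351A.

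Not all classical targets moved. Gclc, the catalytic subunit of glutathione synthesis, was at 448, 301 and 480.4 CPM in cont. and 569, 456 and 584 CPM in S351A (log2 fold change 0.39 ± 0.25, adjusted p = 0.272), so the groups overlapped, with Atg7-KO at 844, 1199.9 and 985 CPM. Its partner Gclm was at 146, 140.2 and 207 CPM in cont. and 150.5, 159 and 204 CPM in S351A (0.05 ± 0.24, adjusted p = 0.898), with a sign that varied between settings. Ugdh, which makes UDP-glucuronate, was at 411, 154 and 214 CPM in cont. and 281, 317 and 305 CPM in S351A (0.22 ± 0.31, adjusted p = 0.642), where cont. replicate 1 lay above every S351A liver. Without that library Ugdh was called (0.69), and without cont. replicate 2 its sign turned (−0.06). Gclc was called with total library size and with the 20 top genes left out. In this family Srxn1, G6pdx, Gstm6, Cbr3, Gpx2 and Gclm were named after their values were seen.

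The genes with the largest increases were nearly silent in control liver. Apela, which encodes the apelin receptor ligand ELABELA, was at 0, 0.352 and 0.448 CPM in cont. and at 354, 192 and 81.4 CPM in S351A (log2 fold change 8.98 ± 0.66, adjusted p = 6.08e-06), and without S351A replicate 1 at 8.36. Slc1a1, a glutamate and cysteine carrier, was at 1.27, 0.704 and 0.269 CPM in cont. and 132, 181 and 98.7 CPM in S351A (8.03 ± 0.46, adjusted p = 2.46e-06), with 7.13 without cont. replicate 3. Ly6d, a GPI-anchored surface protein, was at 3.81, 1.41 and 0.269 CPM in cont. and 211, 174 and 122 CPM in S351A (7.28 ± 0.59, adjusted p = 9.61e-06; 6.13 without cont. replicate 3 and 8.15 without cont. replicate 1). In these 3 genes the lowest S351A liver was far above the highest control. They were chosen for their size of change among genes whose groups did not overlap, so the separation was set beforehand.

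Ubd, which encodes the ubiquitin-like modifier FAT10, was at 1.27, 1.06 and 1.16 CPM in cont. and 103, 264 and 98.7 CPM in S351A (log2 fold change 7.02 ± 0.48, adjusted p = 3.82e-06; 6.38 without S351A replicate 2). Elovl7, a fatty acid elongase, was at 1.27, 0.352 and 0.358 CPM in cont. and 72.4, 54.6 and 34.6 CPM in S351A (6.73 ± 0.46, adjusted p = 3.82e-06), beside 140.4, 217 and 179 CPM in Atg7-KO. Tekt5, a tektin of ciliary microtubules, had 2 counts in a single cont. library and was at 37.9, 24.8 and 32.1 CPM in S351A (adjusted p = 3.82e-06). Gipc2, a PDZ adaptor, had at most 2 counts in a cont. library and was at 29.9, 43.5 and 37.0 CPM in S351A (adjusted p = 6.62e-06). For Tekt5 and Gipc2 the fitted fold change rests on so few control counts that it is not given.

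Major urinary protein genes, which encode secreted pheromone carriers and are more abundant in males, made the largest decreases. Of 13 tested, 11 were called lower (84.6%, beside 13% of all genes) and none higher (median log2 fold change −5.11). With 10 counts required in every library 3 were called, and 7 with limma-voom. Mup7 was at 3629, 101 and 13862 CPM in cont. and 18.4, 13.7 and 8.64 CPM in S351A (−8.75 ± 1.60, adjusted p = 0.00192; −7.10 without cont. replicate 3 and −9.34 without cont. replicate 2). Mup3 was at 6909, 1919.8 and 17094 CPM in cont. and 350.4, 115 and 469 CPM in S351A (−4.79 ± 0.86, adjusted p = 0.00177; −3.83 without cont. replicate 3), and Mup2 at 10859, 8353 and 9398 CPM against 368, 78.2 and 680.0 CPM (−4.67 ± 0.98, adjusted p = 0.00438; −5.44 without S351A replicate 3).

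The female cont. replicate 2 was the lowest control for all 3 of these genes. It lay above every S351A liver, the male replicate 1 included, but these genes were chosen among those whose groups did not overlap. Mup12 was at 432, 87.7 and 2081 CPM in cont. and 3.45, 0 and 0 CPM in S351A, that is, 3 counts in a single S351A library. Mup15 was at 6836, 263 and 32543 CPM against 5.74, 0 and 27.1 CPM (log2 fold change −10.24 ± 1.89, adjusted p = 0.00204), with −8.35 without cont. replicate 3, −10.83 without cont. replicate 2 and −12.13 without S351A replicate 3. Mup genes are near-identical copies, and the division of reads among them is uncertain.

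**Figure D2:**
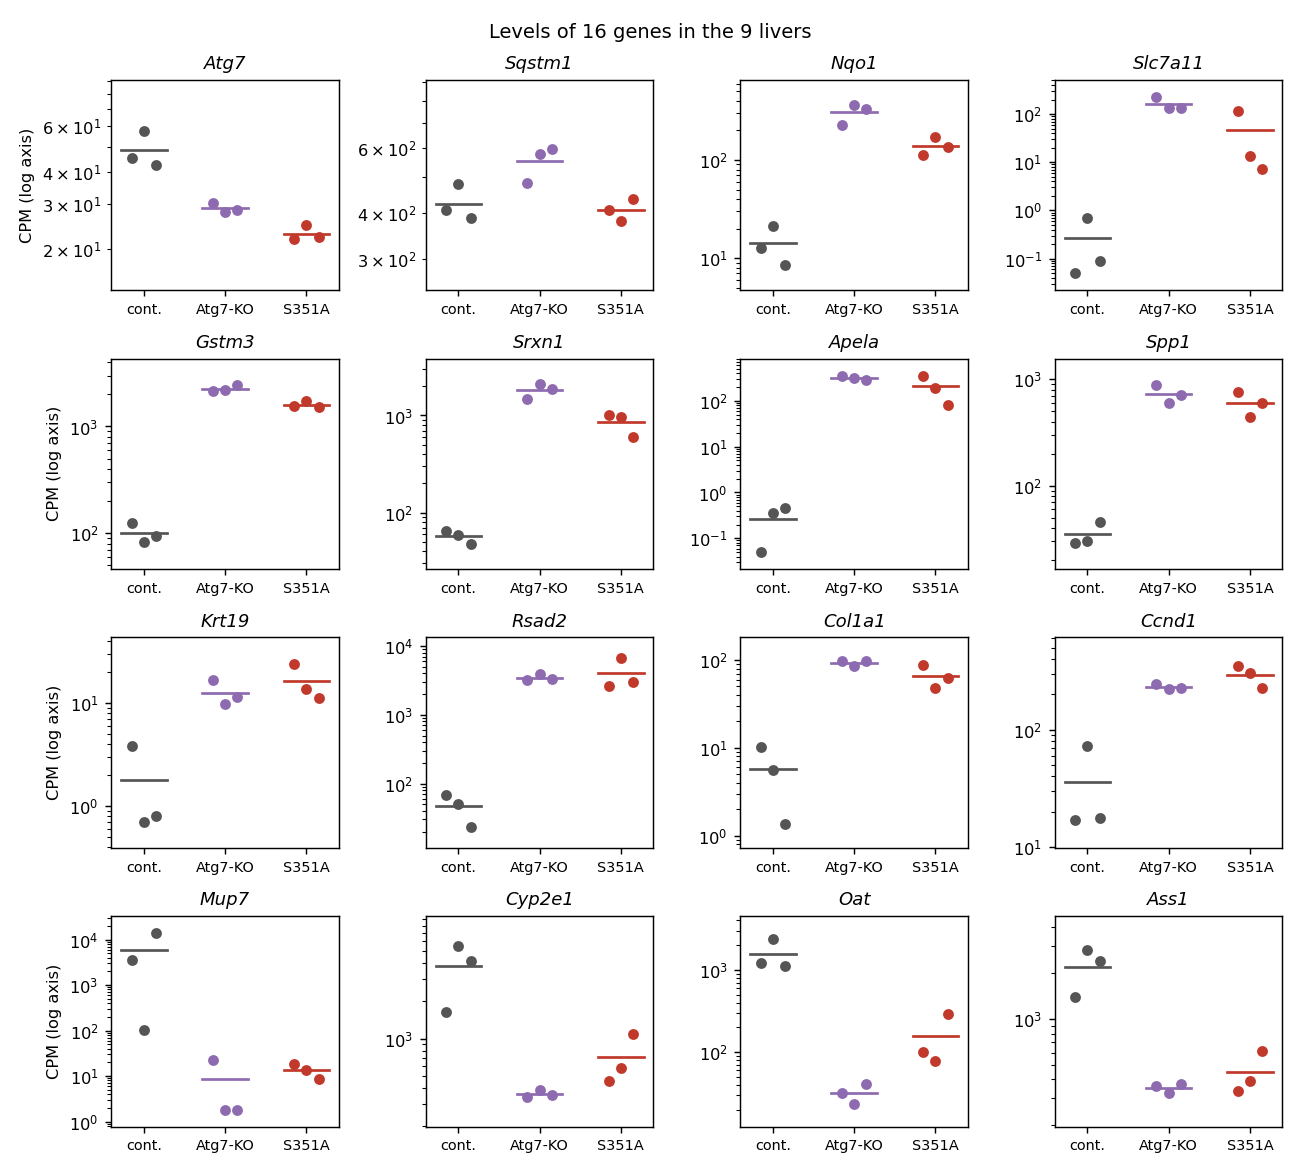
Levels of 16 genes in the 9 livers in CPM on a log axis, 1 point a library and a line at each group mean, with a level of 0 drawn at 0.05 CPM. In Nqo1, Slc7a11, Gstm3, Srxn1, Apela, Spp1, Krt19, Rsad2, Col1a1 and Ccnd1 the 3 S351A livers lie above the 3 cont. livers, in Atg7, Mup7, Cyp2e1, Oat and Ass1 below them, and in Sqstm1 among them.

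Genes of hepatocyte metabolism were lower over many pathways. Of 42 genes of amino acid breakdown, 32 were called lower (76.2%, beside 13% of all genes) and none higher (median log2 fold change −1.27). Counts of the lists that follow stand against the same 15.6% higher and 13% lower of all genes. Tat, tyrosine aminotransferase, fell from 1017, 1219 and 2143 CPM in cont. to 82.7, 117 and 455 CPM in S351A (−2.74 ± 0.56, adjusted p = 0.00348; −3.89 without S351A replicate 3), and Fah, the last enzyme of tyrosine breakdown, from 1264, 1549 and 959 CPM to 445, 595 and 626 CPM (−1.18 ± 0.25, adjusted p = 0.00457). The groups were apart for both genes of this tyrosine route, and S351A replicate 3 was the highest mutant liver in each. With total library size 21 members of the list were called, and Fah was no longer one of them. Tat was named after its values were seen.

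Urea cycle genes gave 9 of 11 lower and 1 higher (median −1.20). Ass1, argininosuccinate synthase, was at 1388, 2825 and 2396 CPM in cont. and 334, 389.9 and 611 CPM in S351A (log2 fold change −2.31 ± 0.32, adjusted p = 3.76e-04). Cps1, the mitochondrial entry enzyme of the cycle, was at 626, 1278 and 1665 CPM against 172, 323 and 462 CPM (−1.90 ± 0.40, adjusted p = 0.00443). Both groups were fully apart for both enzymes. Rhbg, an ammonium carrier, was the member called higher, from 13.3, 15.5 and 11.7 CPM to 25.3, 27.3 and 24.7 CPM (0.95 ± 0.25, adjusted p = 0.0146), and lost its call without cont. replicate 3 or S351A replicate 2 and after thinning. The count of 9 fell to 5 without S351A replicate 1, without S351A replicate 2, and with both other library sizes. Rhbg was named after its values were seen.

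Methionine and one-carbon genes were lower in 13 of 18 and higher in none (median −1.23). Bhmt, betaine-homocysteine methyltransferase, was at 3608, 5537 and 7384 CPM in cont. and 1017, 1878 and 2368 CPM in S351A (log2 fold change −1.65 ± 0.36, adjusted p = 0.0053), and Ahcy, which hydrolyses S-adenosylhomocysteine, at 1795, 2604 and 1987 CPM against 431, 669 and 984 CPM (−1.62 ± 0.31, adjusted p = 0.00243). Cth, the last step of transsulfuration to cysteine, fell from 313, 354 and 907 CPM to 81.6, 78.2 and 194 CPM (−2.16 ± 0.45, adjusted p = 0.004; −1.51 without cont. replicate 3). Ahcy and Cth lie on the route from methionine to cysteine, and both were lower, whereas Slc7a11, which imports cystine, was higher.

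Cytochrome P450 genes of families 1 to 3, the main oxidases of drugs and steroids, were lower in 21 of 39 tested and higher in 4 (median −1.61). Cyp2e1, which oxidises ethanol and acetaminophen, was at 1627, 5535 and 4222 CPM in cont. and 462, 579 and 1086 CPM in S351A (log2 fold change −2.42 ± 0.44, adjusted p = 0.00183). Cyp3a11 was at 799, 1745 and 5213 CPM against 399.8, 339 and 549 CPM (−2.59 ± 0.53, adjusted p = 0.00381; −1.58 without cont. replicate 3). The control livers varied several-fold in these genes but none reached down to an S351A liver. Those called higher were Cyp2a5, Cyp2a4, Cyp1b1 and Cyp2d12, of which only Cyp2a5 kept its call whichever library was left out, and Cyp1b1 lost it with limma-voom as well. Their number was 8 without cont. replicate 2 and 2 without any 1 of the S351A replicates. Cyp1b1 and Cyp2d12 were named after their values were seen.

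Bile acid genes were lower in 15 of 23 and higher in none (median −1.40). Abcb11, the bile salt export pump, fell from 1233, 1129 and 1329.7 CPM to 319, 386 and 523 CPM (log2 fold change −1.59 ± 0.24, adjusted p = 5.84e-04), and Slco1b2, a sinusoidal uptake carrier, from 1424, 1116 and 1176 CPM to 416, 392.4 and 462 CPM (−1.55 ± 0.21, adjusted p = 3.61e-04). Levels of both were tight within the groups, and their calls held in each setting tried. Cyp7b1, of the alternative synthesis route and male-biased, fell from 145, 19.7 and 239 CPM to 13.8, 8.69 and 13.6 CPM (−3.49 ± 0.73, adjusted p = 0.00426; −2.73 without cont. replicate 3). The female control was closest to the S351A livers, and with limma-voom the gene was not called. Cyp7b1 was named after its values were seen.

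Fatty acid oxidation and ketogenesis genes were lower in 24 of 37 (median −1.13), with Fgf21, a fasting hormone, the 1 member called higher. Acaa1b, a peroxisomal thiolase, was at 2421, 1884 and 2122 CPM in cont. and 646, 664 and 893 CPM in S351A (log2 fold change −1.54 ± 0.24, adjusted p = 6.89e-04). Its groups did not overlap. Fgf21 rose from 0, 0.704 and 0.0896 CPM to 5.74, 3.73 and 2.47 CPM, which is 2 to 5 counts a library. The count of 24 fell to 14 when S351A replicate 1 or 2 was left out, and to 10 with total library size. Fgf21 was named after its values were seen.

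Lipid synthesis was mixed. Cholesterol synthesis genes gave 1 higher and 2 lower of 24 (median 0.12), and lipogenesis genes 2 higher and 3 lower of 21 (median −0.54), so that 4.17% and 9.52% were higher and 8.33% and 14.3% lower, near or below the background. Scaled by total library size, 10 cholesterol synthesis genes were higher and 1 lower (median 0.63). Ebp, a sterol isomerase, fell from 172, 251 and 287 CPM in cont. to 85.0, 122 and 123 CPM in S351A (log2 fold change −1.11 ± 0.24, adjusted p = 0.00548), a call lost with total library size, and Tm7sf2, a sterol reductase, from 33.7, 80.3 and 114 CPM to 26.4, 18.6 and 24.7 CPM (−1.73 ± 0.38, adjusted p = 0.00548). Mlxipl, the carbohydrate-responsive factor ChREBP, fell from 1290.5, 1186 and 1350.0 CPM to 178, 224 and 565 CPM (−1.99 ± 0.38, adjusted p = 0.00247; −2.69 without S351A replicate 3). Pnpla3, a lipid droplet lipase named after its values were seen, rose from 1.27, 4.58 and 2.96 CPM to 14.9, 19.9 and 18.5 CPM (2.50 ± 0.38, adjusted p = 6.34e-04). Without cont. replicate 3, 6 genes of cholesterol synthesis were called higher, and without S351A replicate 3 there were 3. Of lipogenesis genes 8 were called lower without cont. replicate 2, 5 without cont. replicate 1 or S351A replicate 3, and 1 without S351A replicate 1.

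Of 19 genes of apolipoproteins and lipoprotein assembly 11 were called lower and 2 higher (median −1.03), and of 41 coagulation and complement genes 19 were lower and none higher (median −0.64). Apoa2 was at 8402, 20572 and 16475 CPM in cont. and 2069, 1688 and 3468 CPM in S351A (log2 fold change −2.65 ± 0.39, adjusted p = 4.73e-04). Apoa4, which is raised in fatty liver, went the other way, from 26.1, 122 and 84.8 CPM to 979, 680.5 and 476 CPM (3.18 ± 0.46, adjusted p = 4.85e-04). Vtn, vitronectin, fell from 2239.6, 3660.4 and 2894 CPM to 1205, 1114 and 1322 CPM (−1.27 ± 0.25, adjusted p = 0.00295). For each of the 3 genes the groups were apart. Without S351A replicate 2 the lower counts were 7 and 12. With total library size 5 apolipoprotein genes were lower and 6 higher (median −0.53), and 9 coagulation and complement genes lower and 3 higher (median −0.16). Apoa2 and Apoa4 were named after their values were seen.

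Glucose genes differed by pathway. Of 18 genes of glucose output and glycogen 7 were lower and none higher (median −0.81), and of 21 glycolysis genes 7 were higher and 1 lower (median 0.35). G6pc, glucose-6-phosphatase, was at 874, 154 and 1096 CPM in cont. and 91.9, 95.6 and 115 CPM in S351A (log2 fold change −2.81 ± 0.53, adjusted p = 0.00225), and Pygl, liver glycogen phosphorylase, at 238, 272 and 434 CPM against 114, 83.2 and 144 CPM (−1.47 ± 0.28, adjusted p = 0.00261). Hk2, a hexokinase that adult hepatocytes hardly express, rose from 3.81, 4.23 and 1.97 CPM to 79.3, 58.4 and 37.0 CPM (4.32 ± 0.36, adjusted p = 1.07e-05). Ldha fell from 170.4, 265 and 346 CPM to 126, 122 and 125 CPM (−1.07 ± 0.25, adjusted p = 0.00732) and was not called with total library size. The 7 glycolysis genes were 1 without S351A replicate 1 and 4 when S351A replicate 2 was left out, and the 7 of glucose output were 4 without S351A replicate 1. Scaled by total library size, 12 glycolysis genes were higher and none lower, and glucose output gave 3 higher and 4 lower, and with the 20 top genes left out 11 glycolysis genes were higher. Hk2 was named after its values were seen.

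Mitochondrial respiratory chain subunits were the most uniform of the large complexes. Of 58 nuclear-encoded subunits 45 were called lower, none was higher, and all 58 log2 fold changes were below 0 with TMM (median −1.21). Uqcrq of complex III was at 1118, 1576 and 1031 CPM in cont. and 372, 298 and 485 CPM in S351A (log2 fold change −1.69 ± 0.27, adjusted p = 7.65e-04), and Cox6c of complex IV at 578, 634 and 735 CPM against 176, 144 and 289 CPM (−1.68 ± 0.28, adjusted p = 0.00107). In Atg7-KO, Uqcrq was at 350.3, 382 and 448 CPM and Cox6c at 169, 201 and 236 CPM. With total library size 28 subunits were called lower. Cytosolic ribosomal protein genes gave 5 higher and 2 lower of 72 (median 0.15), a share below the background, and their higher count depended on scaling and library: it was 37 with total library size, 0 without S351A replicate 2, 1 without cont. replicate 2, Atg7-KO replicate 3 or S351A replicate 1, 2 when Atg7-KO replicate 2 was left out and 3 when Atg7-KO replicate 1 was. Their lower count was 7 without cont. replicate 1.

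Proteasome genes moved by subunit. Of 44 tested, 18 were lower and 3 higher (median −0.55). The constitutive catalytic subunit Psmb6 fell from 296, 308 and 271 CPM to 96.5, 103 and 170.3 CPM (log2 fold change −1.24 ± 0.24, adjusted p = 0.00269), and Psmb5 from 102, 146 and 161 CPM to 60.9, 58.4 and 35.8 CPM (−1.41 ± 0.28, adjusted p = 0.00327). The interferon-inducible subunits that take their places in the immunoproteasome rose, Psmb9 from 17.2, 20.4 and 20.3 CPM to 32.2, 49.7 and 49.4 CPM (1.16 ± 0.23, adjusted p = 0.00334) and Psmb8 from 28.6, 52.1 and 42.2 CPM to 81.6, 103 and 90.1 CPM (1.14 ± 0.25, adjusted p = 0.00484). The third member called higher, the activator subunit Psme1, was at 197, 162 and 184 CPM against 276, 426 and 288 CPM (0.86 ± 0.23, adjusted p = 0.0135) and was not called without S351A replicate 2. The balance turned with total library size, to 7 lower and 10 higher (median −0.05), the lower count was 9 without the 20 top genes, and 5 members were higher without cont. replicate 3. Psmb5, Psmb8 and Psmb9 were named after their values were seen.

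Endoplasmic reticulum chaperones were lower in 13 of 28 and higher in none (median −0.74). Sdf2l1, a luminal chaperone component, fell from 26.1, 28.2 and 62.4 CPM to 5.74, 6.21 and 9.87 CPM (log2 fold change −2.47 ± 0.43, adjusted p = 0.00136), and Hspa5, the chaperone BiP, from 568, 449 and 839.7 CPM to 333, 299 and 248 CPM (−1.08 ± 0.27, adjusted p = 0.0107). Both groups were apart, but the call of Hspa5 was lost with either other library size, and the count of 13 was 6 without S351A replicate 2 and 3 with total library size. Both genes were named after their values were seen.

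None of 9 ER-phagy receptor genes, which select reticulum for autophagy, was called in this comparison (median −0.15, and 0.33 with total library size). Log2 fold changes ran from −0.53 for Calcoco1 to 0.38 for Ccpg1, with −0.51 for Fam134c, −0.36 for Tex264, −0.28 for Fam134a, −0.15 for Rtn3 and Atl3, 0.04 for Fam134b and 0.26 for Sec62. Ccpg1 was at 38.1, 36.3 and 44.3 CPM in cont. and 58.6, 58.4 and 38.3 CPM in S351A (0.38 ± 0.21, adjusted p = 0.203), where 2 mutant livers were above the controls and the third among them. It was called with both other library sizes. Fam134a was the 1 receptor whose groups were apart, at 75.6, 67.3 and 86.0 CPM against 62, 64.6 and 62.9 CPM (−0.28 ± 0.19, adjusted p = 0.294), and its sign turned with total library size (0.22).

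Of 35 core autophagy genes 8 were lower (22.9%) and 1 higher (2.86%; median −0.35, and 0.14 with total library size), and of 15 other receptors and p62 partners 2 were lower and 1 higher (median −0.42, and 0.08 with total library size). Atg101, a subunit of the ULK1 initiation complex, fell from 38.1, 50.003 and 50.9 CPM to 16.1, 11.2 and 4.94 CPM (log2 fold change −2.11 ± 0.35, adjusted p = 0.00103). Mvp, the major vault protein, rose from 75.6, 76.1 and 69.8 CPM to 192, 209.9 and 167 CPM (1.36 ± 0.19, adjusted p = 3.98e-04). Wipi1, a phosphoinositide-binding protein of the forming autophagosome, was the core gene called higher (0.71 ± 0.24, adjusted p = 0.0456) and was not called with the replicate block (0.67, adjusted p = 0.0541), DESeq2, limma-voom, no filter, thinning or the 6 libraries alone, or without any single library other than cont. replicate 1 and S351A replicate 2. The 8 lower core genes were 2 without S351A replicate 1, 4 without S351A replicate 2 and 1 with total library size, where 5 core genes and 3 receptors were higher and no receptor lower. The 2 lower receptors, Optn and Bnip3, both lost their call without S351A replicate 1, with the 6 libraries alone and with both other library sizes, and Bnip3 also without S351A replicate 2 and Optn after thinning, whereas 6 receptors were lower without S351A replicate 3. Atg101 and Wipi1 were named after their values were seen.

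Lysosomal genes went up where they changed: 11 of 39 were higher and none lower (median 0.27). Ctsb, cathepsin B, was at 297, 485 and 425 CPM in cont. and 690.5, 905 and 768 CPM in S351A (log2 fold change 0.97 ± 0.25, adjusted p = 0.0115), and Ctsz, cathepsin Z, at 172, 306 and 225 CPM against 415, 559 and 457 CPM (1.02 ± 0.26, adjusted p = 0.0108). Neither was called without S351A replicate 2, and the count of 11 was 7 without S351A replicate 1 or 2 and 20 with total library size (median 0.76). The highest control of both still lay below the lowest mutant. ATF4 targets, the integrated stress response, gave 4 higher and 3 lower of 19 (median 0.07), shares of 21.1% and 15.8% that are close to the background. Among them were Atf3, rising from 1.91, 1.76 and 2.33 CPM to 9.19, 34.8 and 13.6 CPM (3.14 ± 0.47, adjusted p = 5.31e-04; 2.38 without S351A replicate 2), and Atf5, falling from 247, 353 and 259.8 CPM to 108, 108 and 190.1 CPM (−1.08 ± 0.26, adjusted p = 0.0086), whose call was lost with total library size (−0.59). Atf3 was named after its values were seen.

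Of 21 hepatocyte identity genes tested, 10 were lower and none higher (median −0.74), and their summed level was 58253 to 118010 CPM in cont. and 39595 to 51870 CPM in S351A. Serpina1c, an antitrypsin gene, was at 6219.7, 4554 and 8871 CPM in cont. and 1568, 1116 and 1311 CPM in S351A (log2 fold change −2.30 ± 0.32, adjusted p = 3.52e-04). Hnf4a, the central transcription factor of hepatocytes, was at 502, 714 and 453 CPM in cont. and 559, 766 and 711 CPM in S351A (0.29 ± 0.25, adjusted p = 0.42), so the groups overlapped, and it was called higher with total library size (0.77). Hepatocyte markers were thus present at high levels in all 6 livers. The count of 10 was 3 without S351A replicate 1, 4 without S351A replicate 2, and 2 with total library size, where 2 others were higher. Hnf4a was named after its values were seen, and the part of cell composition in the metabolic lists was not tested.

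Ductular markers, of the bile duct lining, stood out on the opposite side. Of 16 tested, 15 were called higher and none lower, with a median log2 fold change of 3.80 (3.65 with members at the floor set to their bound), and 4 of the 20 listed did not pass the filter on low counts, which members high only in mutants could pass. Their summed level was 124 to 177 CPM in cont. and 984 to 1549.8 CPM in S351A. Spp1, given next and also on the macrophage list, was a large part of the sum in S351A. Spp1, osteopontin, was at 29.2, 29.9 and 46.0 CPM in cont. and 761, 442 and 599.8 CPM in S351A (4.08 ± 0.31, adjusted p = 8.39e-06). Sox9, a duct and progenitor transcription factor, was at 48.9, 14.1 and 29.8 CPM against 379, 248 and 153 CPM (3.10 ± 0.43, adjusted p = 3.83e-04), and the duct keratin Krt19 at 3.81, 0.704 and 0.806 CPM against 24.1, 13.7 and 11.1 CPM (3.69 ± 0.59, adjusted p = 8.05e-04; 4.30 without cont. replicate 1 and 3.07 without cont. replicate 3). Mmp7, a matrix protease, was at 0 in all cont. libraries and at 13.8, 24.8 and 35.8 CPM in S351A, which is at least 13-fold higher against the floor of 3 counts in the shallowest cont. library. With 10 counts required in every library 3 members were called, and 9 after thinning all libraries to the smallest.

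Fetal and tumour markers gave 12 of 16 higher and none lower (median 3.83), 6 of the 22 listed did not pass the filter, and 4 were called when genes needed 10 counts in every library. Sox4, a progenitor transcription factor, was at 26.1, 13.4 and 4.39 CPM in cont. and 689, 437 and 191 CPM in S351A (log2 fold change 5.05 ± 0.63, adjusted p = 1.78e-04; 5.72 without cont. replicate 1). Lpl, lipoprotein lipase, which adult hepatocytes hardly express, was at 83.9, 47.5 and 71.8 CPM against 1035, 1152 and 537 CPM (3.75 ± 0.34, adjusted p = 1.96e-05). S351A replicate 3 was the lowest mutant liver in both, yet far above the controls. Afp, alpha-fetoprotein, was at 1.91, 4.23 and 1.52 CPM in cont. and 8.04, 1.24 and 2.47 CPM in S351A (0.77 ± 0.72, adjusted p = 0.453) and was not called, its sign turning without S351A replicate 1 (−0.34). Cytoskeletal genes were higher in 10 and lower in 3 of 23 (median 0.85), among them Tmsb10, a thymosin that binds actin monomers, from 46.4, 69.4 and 21.1 CPM to 478, 351.4 and 257 CPM (3.00 ± 0.40, adjusted p = 2.71e-04). Annexins and S100 genes were higher in 7 and lower in 1 of 15 (median 0.77), with Anxa5 from 57.2, 30.3 and 48.1 CPM to 234, 181 and 195 CPM (2.18 ± 0.25, adjusted p = 1.02e-04). Mmp7, described with the ductular markers, and Afp were named after their values were seen.

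**Figure D3:**
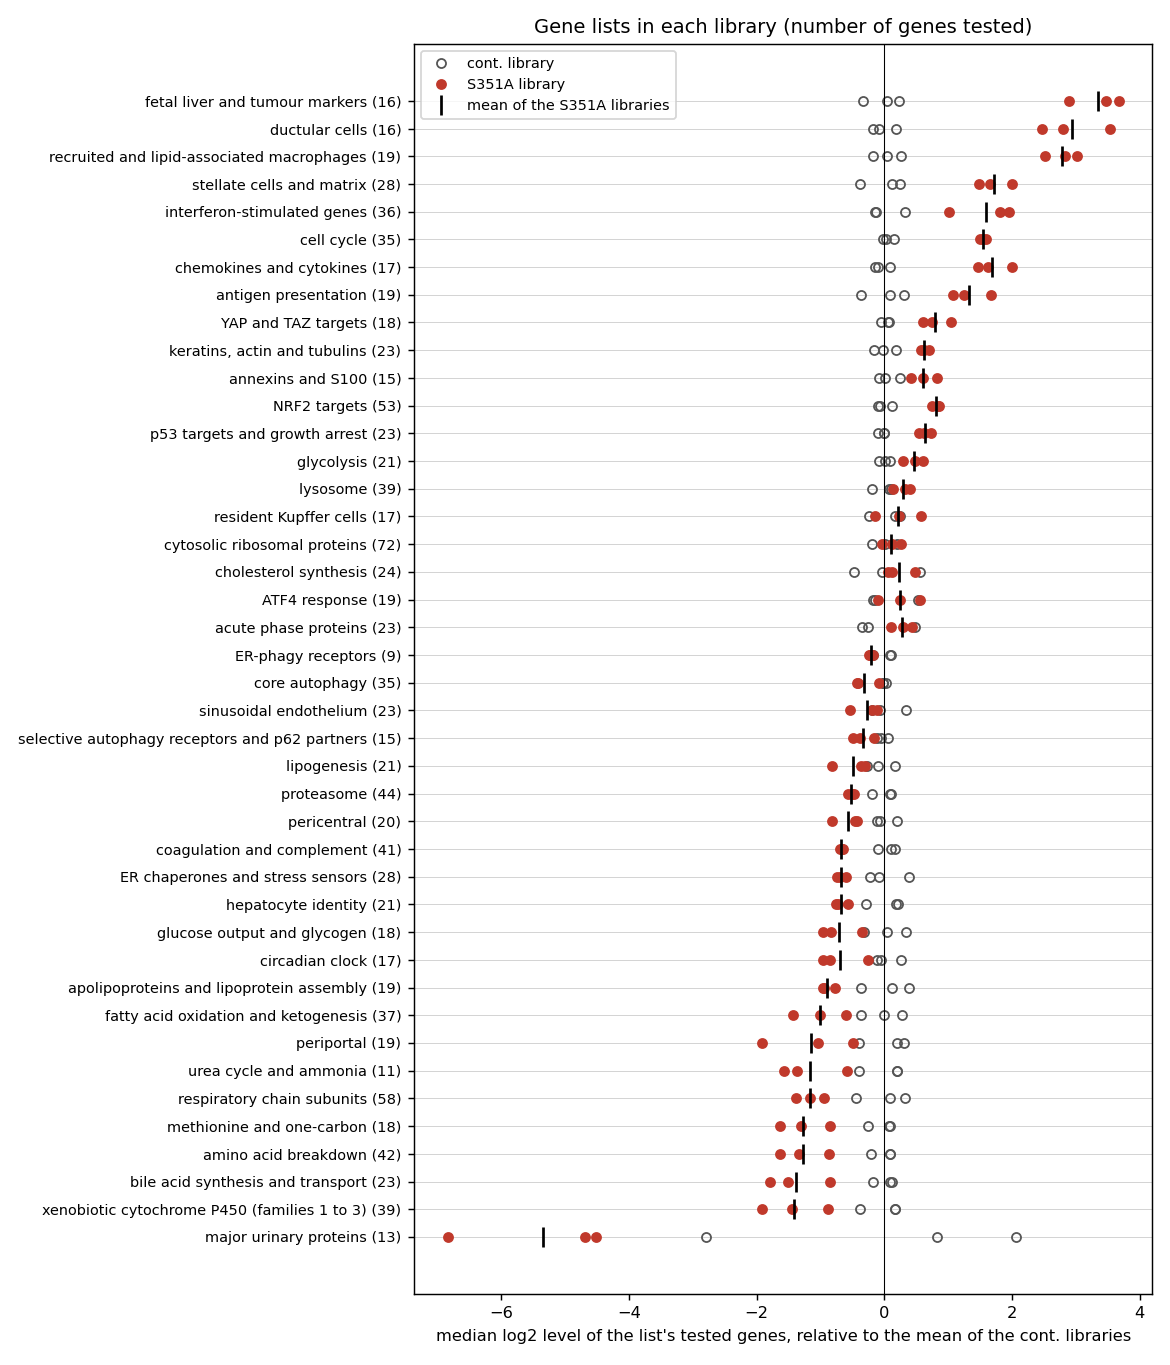
Median log2 level of the tested genes of each list in each library, relative to the mean of the cont. libraries (horizontal axis), with open circles for cont., filled circles for S351A and a bar for the S351A mean; the number tested is in brackets. Ductular, fetal, macrophage, matrix, interferon and cell cycle lists lie to the right of every control in all 3 S351A livers, and respiratory chain, amino acid and bile acid lists to the left.

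Most interferon-stimulated genes were higher. Of 36 tested, 28 were called higher and none lower (median log2 fold change 1.76), and 21 to 28 when single libraries were left out. Rsad2, the antiviral enzyme viperin, was at 68.7, 50.4 and 23.02 CPM in cont. and 2617, 6709 and 2954 CPM in S351A (6.46 ± 0.53, adjusted p = 1.07e-05), beside 3208, 3912 and 3279 CPM in Atg7-KO. Ifit1, which binds foreign RNA, was at 82.6, 87.0 and 28.8 CPM against 855, 2357 and 1003 CPM (4.42 ± 0.50, adjusted p = 8.97e-05; 3.80 without S351A replicate 2). Isg15, a ubiquitin-like modifier, was at 8.90, 17.3 and 15.9 CPM against 63.2, 91.9 and 122 CPM (2.67 ± 0.30, adjusted p = 8.57e-05). S351A replicate 2 was the highest liver for Rsad2 and Ifit1 but not for Isg15, and the groups were apart for all 3 of these genes, whose promoters are printed above.

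Irf7, the amplifying transcription factor of the response, was at 68.7, 87.0 and 45.5 CPM in cont. and 269, 391 and 264 CPM in S351A (log2 fold change 2.21 ± 0.27, adjusted p = 1.78e-04). All S351A livers lay above all controls. Isg15 was named after its values were seen.

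Antigen presentation genes were higher in 15 of 19 and lower in none (median 1.43). In the class I pathway Tapbp, tapasin, rose from 66.7, 112 and 82.9 CPM to 257, 310.4 and 196 CPM (log2 fold change 1.54 ± 0.25, adjusted p = 9.01e-04), and H2-D1 from 390.3, 633 and 548 CPM to 1072, 1644 and 1219 CPM (1.32 ± 0.26, adjusted p = 0.003). In the class II pathway Cd74, the invariant chain, rose from 35.0, 52.1 and 37.6 CPM to 227, 437 and 216 CPM (2.82 ± 0.31, adjusted p = 7.98e-05). All 3 were highest in S351A replicate 2. H2 genes have close paralogs, so reads may be split between them.

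Chemokine and cytokine genes were higher in 11 of 17 tested and lower in 1 (median 1.69), 11 listed genes did not pass the filter, and 4 were called higher when genes needed 10 counts in every library. Cxcl10, an interferon-induced T-cell attractant, was at 1.91, 2.82 and 3.94 CPM in cont. and 68.9, 128 and 114 CPM in S351A (log2 fold change 4.97 ± 0.31, adjusted p = 2.94e-06), and Ccl5 at 1.91, 1.76 and 1.34 CPM against 14.9, 44.7 and 45.7 CPM (4.48 ± 0.49, adjusted p = 7.60e-05). Ccl2, a monocyte attractant, held at most 3 counts in a cont. library and was at 22.98, 27.3 and 9.87 CPM in S351A (adjusted p = 6.20e-05). All 3 chemokines were thus above the controls in every mutant liver. Cxcl12, a stromal chemokine, was at 197, 184 and 249 CPM in cont. and 108, 82.0 and 125 CPM in S351A (−1.00 ± 0.25, adjusted p = 0.0112) and was not called without S351A replicate 2 or with either other library size. Cxcl10 and Ccl2 were named after their values were seen.

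Markers of recruited and lipid-associated macrophages were higher in 16 of 19 and lower in none, with a median of 3.12 (2.28 with members at the floor set to their bound), and their summed level was 309.6 to 435 CPM in cont. and 1635 to 2487 CPM in S351A. With 10 counts required in every library 8 were called. Spp1 and Lpl, given above, are on this list too and made up most of that sum in S351A, and the 17 other tested members summed to 196 to 317 CPM in cont. and 499 to 692 CPM in S351A. Trem2, a lipid receptor of these cells, was at 0.636, 1.41 and 0.448 CPM in cont. and 13.8, 17.4 and 18.5 CPM in S351A (log2 fold change 4.51 ± 0.44, adjusted p = 3.54e-05; 3.80 without cont. replicate 3), and Cd9 at 7.63, 15.8 and 18.5 CPM against 95.4, 59.6 and 48.1 CPM (2.19 ± 0.31, adjusted p = 4.36e-04). Gpnmb was at 0 in all cont. libraries and at 9.19, 4.97 and 1.23 CPM in S351A, the last being 1 count.

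Resident Kupffer cell markers did not move together: 5 of 17 were higher and 1 lower (median 0.19), and their summed level was 519 to 712 CPM in cont. and 596 to 729 CPM in S351A. C1qb, a complement subunit made by macrophages, rose from 15.9, 25.7 and 20.2 CPM to 63.2, 69.5 and 43.2 CPM (log2 fold change 1.49 ± 0.24, adjusted p = 8.05e-04). Cd163, a haemoglobin scavenger receptor, fell from 13.3, 16.9 and 16.04 CPM to 0, 0 and 4.94 CPM (−3.24 ± 0.71, adjusted p = 0.00545; −8.70 without S351A replicate 3 and −2.65 without S351A replicate 1). Clec4f, the defining marker of mouse Kupffer cells, was at 125, 179 and 124 CPM in cont. and 68.9, 101 and 111 CPM in S351A (−0.61 ± 0.28, adjusted p = 0.122), below the controls in all 3 livers but called lower only with sex as a term (−0.83, adjusted p = 0.0111). The count of 5 was 3 without S351A replicate 3 and 8 with total library size (median 0.70). Trem2, Gpnmb, Cd163 and Clec4f were named after their values were seen.

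Stellate cell and matrix genes were higher in 21 of 28 and lower in 1 (median 1.97). Col1a1, the chain of fibrillar collagen I, was at 10.2, 5.63 and 1.34 CPM in cont. and 87.3, 48.4 and 61.7 CPM in S351A (log2 fold change 3.95 ± 0.53, adjusted p = 3.01e-04; 4.57 without cont. replicate 1 and 3.12 without cont. replicate 3). Col3a1 was at 32.4, 28.9 and 22.1 CPM against 248, 183 and 246 CPM (3.04 ± 0.25, adjusted p = 9.61e-06), and Sparc, a matrix-binding glycoprotein, at 75.6, 85.6 and 46.3 CPM against 361, 304 and 209.8 CPM (2.08 ± 0.29, adjusted p = 3.52e-04). The mutant livers lay above the controls throughout. Ecm1, the member called lower, fell from 189, 375 and 157 CPM to 82.7, 68.3 and 75.3 CPM (−1.67 ± 0.31, adjusted p = 0.00208). With 10 counts required in every library 12 members were called. Col1a1 and Col3a1 were named after their values were seen.

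Sinusoidal endothelium markers gave 2 higher and 2 lower of 23 (median −0.39, and 0.12 with total library size), 8.70% in each direction and so below the background. Lyve1 rose from 15.9, 22.2 and 12.6 CPM to 47.1, 47.2 and 30.9 CPM (log2 fold change 1.33 ± 0.29, adjusted p = 0.00528; not called after thinning, 0.99), and Oit3 fell from 12.7, 19.02 and 15.9 CPM to 3.45, 2.48 and 7.40 CPM (−1.85 ± 0.41, adjusted p = 0.00588; −2.44 without S351A replicate 3). In S351A replicates 1 and 2 Oit3 was at or under the floor of 3 counts. Lower members were 5 without cont. replicate 1 and 4 without S351A replicate 3, the other members called with all libraries being Cd34 (higher) and Dnase1l3 (lower, lost without S351A replicate 1 or 2, with both other library sizes and after thinning). Of lymphocyte markers only 4 of 24, and of neutrophil markers only 2 of 15, passed the filter at this depth. Lcn2, also an acute phase protein of hepatocytes, was at 3.81, 11.6 and 1.97 CPM in cont. and 118, 191 and 109 CPM in S351A (4.72 ± 0.53, adjusted p = 8.79e-05; 5.83 without cont. replicate 2 and 4.04 without cont. replicate 3). Cd34 was named after its values were seen.

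Cell cycle genes were higher in 23 of 35 and lower in none (median 1.70). Mki67, the proliferation antigen Ki-67, was at 3.81, 4.23 and 3.49 CPM in cont. and 35.6, 36.01 and 30.9 CPM in S351A (log2 fold change 3.17 ± 0.26, adjusted p = 1.01e-05), and Top2a, a topoisomerase of dividing cells, at 3.81, 1.76 and 1.97 CPM against 43.7, 43.5 and 30.9 CPM (4.13 ± 0.33, adjusted p = 9.52e-06). Levels of Mki67 were close within each group, whereas for Top2a cont. replicate 1 stood above the other controls. Ccnd1, cyclin D1, was at 17.2, 72.9 and 17.7 CPM against 349, 301 and 226 CPM (3.02 ± 0.48, adjusted p = 8.05e-04; 4.04 without cont. replicate 2). Only 2 members were called with 10 counts required in every library, 8 after thinning all libraries to the smallest and 11 with the 6 libraries alone.

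p53 targets and growth arrest genes gave 8 higher and none lower of 23 (median 0.50). The count of 8 was 12 with total library size, 2 with 10 counts required in every library, 4 with the 6 libraries alone and 5 after thinning. Btg2, an antiproliferative gene, rose from 3.18, 9.86 and 8.51 CPM to 32.2, 57.1 and 32.1 CPM (log2 fold change 2.37 ± 0.37, adjusted p = 7.17e-04), and Aen, an apoptosis nuclease, from 34.3, 34.9 and 23.2 CPM to 58.6, 70.8 and 51.8 CPM (1.00 ± 0.23, adjusted p = 0.00767). Cdkn1a, which encodes the cell cycle inhibitor p21, was at 2.54, 52.1 and 5.91 CPM in cont. and 59.7, 115 and 102 CPM in S351A (2.20 ± 0.74, adjusted p = 0.0434). Its control replicate 2 stood apart, and without it the log2 fold change was 4.17, whereas leaving out any other single library ended the call, as did DESeq2 and the 6 libraries alone. YAP and TAZ targets were higher in 9 and lower in 1 of 18 (median 1.03), Fgf1 being the lower one. Crim1 rose from 17.2, 18.3 and 16.2 CPM to 40.2, 43.5 and 27.1 CPM (1.11 ± 0.22, adjusted p = 0.0034). Btg2 was named after its values were seen.

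**Figure D4:**
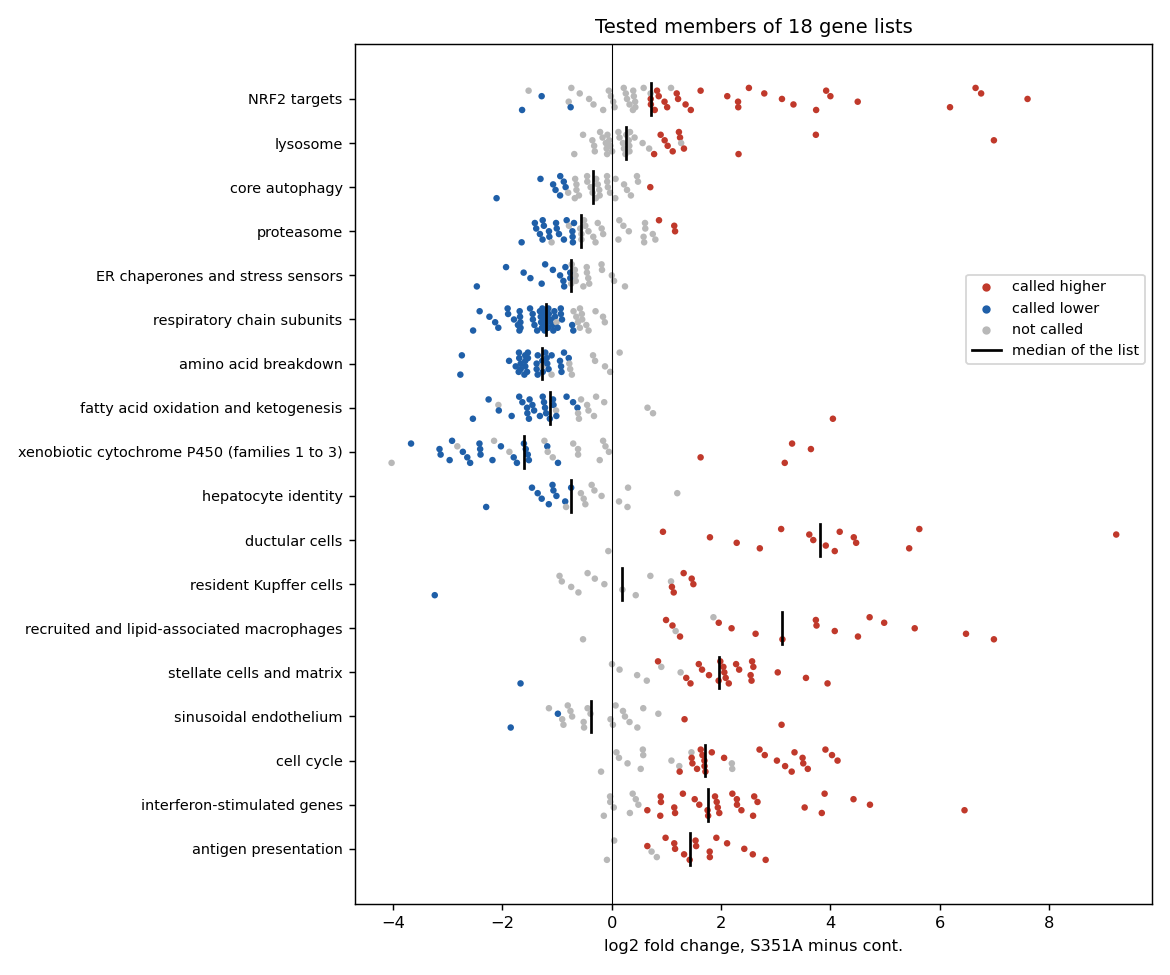
Log2 fold change of every tested member (horizontal axis) in 18 lists, coloured by call, with a line at the median of the list. Respiratory chain members all lie below 0, and all ductular members but 1 lie above 0. NRF2 targets spread from decreases such as Mgst1 (−1.64) to increases above 6 such as Slc7a11, whose size rests on few control counts.

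Zonal genes mark the ends of the liver lobule. Of 20 pericentral genes 7 were lower and 3 higher (median −0.59, and −0.09 with total library size), and of 19 periportal genes 11 were lower and 1 higher (median −1.17). Oat, ornithine aminotransferase of the pericentral zone, was at 1197, 2371 and 1125 CPM in cont. and 101, 78.2 and 290.0 CPM in S351A (log2 fold change −3.32 ± 0.49, adjusted p = 5.50e-04; −4.14 without S351A replicate 3), beside 32.2, 23.3 and 40.7 CPM in Atg7-KO. Glul, glutamine synthetase of the innermost pericentral hepatocytes, fell from 802, 1525 and 859 CPM to 342, 365 and 499 CPM (−1.40 ± 0.29, adjusted p = 0.00369). The groups were apart for both. Among pericentral genes called higher, Slc1a4 rose from 5.09, 5.28 and 6.00 CPM to 89.6, 37.3 and 30.9 CPM (3.23 ± 0.39, adjusted p = 1.39e-04; 2.58 without S351A replicate 1), and the others were Rhbg and Gstm3. Aldh1b1, the periportal member called higher, rose from 34.3, 30.6 and 45.2 CPM to 78.1, 119 and 101 CPM (1.42 ± 0.23, adjusted p = 8.36e-04). The 11 periportal genes were 7 without S351A replicate 1 or 2 and 6 with total library size. Glul, Slc1a4, Rhbg and Aldh1b1 were named after their values were seen.

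Circadian clock genes were lower in 6 of 17 and higher in none (median −0.90). Clock was at 113, 85.2 and 79.1 CPM in cont. and 42.5, 48.4 and 44.4 CPM in S351A (log2 fold change −1.02 ± 0.22, adjusted p = 0.00495), with groups apart, and lost its call with total library size. The count of 6 was 3 without S351A replicate 1 and 2 with total library size, where 1 was higher. Times of day of collection were not given in the sources used here. Immediate early genes gave 5 higher and 1 lower of 15 (median 0.75), and 8 higher with total library size, Klf6 rising from 29.9, 32.0 and 13.8 CPM to 270.0, 324 and 132 CPM (3.30 ± 0.38, adjusted p = 1.07e-04) and Jun from 41.3, 10.2 and 21.1 CPM to 75.8, 128 and 67.9 CPM (1.96 ± 0.40, adjusted p = 0.00372). These genes also respond to tissue handling, whose part was not tested.

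Sex-biased genes bear on the unequal sexes. Of 20 male-biased liver genes 12 were lower and none higher (median −2.88), and of 19 female-biased genes 4 were higher and none lower (median −0.12, and 0.33 with total library size). Without the female cont. replicate 2 these counts were 20 and 12. Elovl3, a male-biased elongase, was at 882, 17.96 and 654 CPM in cont. and 39.1, 1.24 and 2.47 CPM in S351A (log2 fold change −5.15 ± 1.36, adjusted p = 0.0143), so the female control lay below the male mutant liver, and it was not called without S351A replicate 2, with DESeq2 (adjusted p = 0.0545) or with limma-voom (adjusted p = 0.145). Its log2 fold change was −8.11 without S351A replicate 1 and −4.55 without cont. replicate 1. Cyp2a4, a female-biased gene, was at 16.5, 609.9 and 4.66 CPM in cont. and 1523, 3054 and 3316 CPM in S351A (3.64 ± 1.25, adjusted p = 0.0452). The male S351A replicate 1 was above the female control. The log2 fold change of Cyp2a4 was 8.14 without cont. replicate 2 and 3.05 with cont. replicate 3 left out, the call was lost with the 6 libraries alone and without any 1 library other than cont. replicates 2 and 3, and Cyp2a4 shares much of its sequence with Cyp2a5. With sex as a term over all 9 libraries 3206 genes were called, 1742 higher and 1464 lower. Elovl3 was named after its values were seen.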

How the data were processed

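RNA of 9 livers, 3 per genotype, was measured by single-end sequencing. Per the labels and the submitters' processing notes, the authors trimmed reads with Trim Galore, aligned them to mm10 with STAR and deposited expected counts per gene from RSEM, of which 4.40 to 7.75% per library were not whole. Versions and the strand setting were not given in the sources used here.

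Expected counts were rounded. edgeR 4.0.16 (R 4.3.3) kept 11199 genes (filterByExpr, minimum count 10 and total 15), scaled by TMM, and fitted 1 term per group by quasi-likelihood to all 9 libraries, which share 1 estimate of spread. The contrast was S351A minus cont., two-sided, with Benjamini-Hochberg adjustment over all tested genes. SE is the log2 fold change over the root of F. Levels are CPM, and the floor is 3 counts. The fit was also run on simulated data, with an outcome that is not reported here. Intervals of counting are not given, as reads carry no molecular identifiers. Replicates of a group differed by more than counting error in every pair.

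The replicate numbers were checked for pairing of cont. and S351A: deviations from the group means of same-numbered libraries correlated at 0.235, 0.175 and 0.160, over genes, so the block was fitted as an alternative. Other alternatives were other scalings, filters and tools (DESeq2 1.42.0, limma 3.58.1), a sex term, thinning, the 6 libraries alone and each library left out.

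The comparison, gene lists and naming rule were chosen with earlier results of these data known. Named were the genes of the p62, KEAP1 and NRF2 axis with 5 further NRF2 targets and Krt19, ER-phagy receptors, the 8 called genes per direction with the largest change among those whose groups did not overlap and whose higher group averaged 30 CPM or more, and 3 called members of each list with the highest mean. Some genes that the rule names are not reported here. Other genes are said to have been named after their values were seen. Positions are from GENCODE M21, and 80 of the 231 genes examined share exonic bases with another gene. Of 24411 deposited symbols, 23376 were found there. Knock-in livers without Cre were not analysed here.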

Additional observations from a re-analysis of the deposited data

How the results depend on the processing

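The direction of the called genes depended most on scaling. Total library size gave 3541 higher and 510 lower genes, and leaving the 20 top genes out of the library sizes gave 2775 and 717, against 1748 and 1460 with TMM. A minimum of 10 counts in every library gave 1941 called genes with 940 higher, the 6 libraries alone 1849 (1085 higher, 764 lower), thinning to the smallest library 2096 (1109 higher), and a fold above 2 gave 949 lower. Leaving out single libraries gave 2098 to 3572 called genes, 1206 to 1926 higher and 887 to 1650 lower. The fewest called were without S351A replicate 1 and the fewest lower without S351A replicate 2. With the replicate block 3406 genes were called. Among the genes named, the block changed the calls of Nfe2l2 (−0.88, called) and Wipi1 (0.67, lost) and no other.

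Of 231 genes examined, 212 were called and 127 kept their sign and their side of the threshold in each of the 17 to 20 settings that tested them, and 12 changed sign in at least 1. Sqstm1 was 0.43 with total library size, 0.28 without the top genes, 0.013 with 10 counts in every library, 0.020 with the 6 libraries alone and 0.059 after thinning, and −0.13 to 0.026 with single libraries left out. Keap1 was −0.036 with no filter and −0.020 with a sex term, and −0.24 to 0.19 with single libraries left out. Fam134b was −0.062 and −0.17 in the same 2 settings, and −0.28 to 0.53 with libraries left out. Gclm was −0.056 with no filter and −0.11 to 0.25 with libraries left out, and Afp −0.34 to 1.29. With total library size Fam134a was 0.22, Fam134c 0.016, Tex264 0.14, Rtn3 0.33 and Atl3 0.36. Without the top genes Fam134a was 0.052, Rtn3 0.18 and Atl3 0.18, and Rtn3 was 0.012 after thinning. With libraries left out Ugdh was −0.060 to 0.69, Sec62 −0.051 to 0.63 and Atl3 −0.28 to 0.086. The cause of these moves was not tested. Depth limited the S351A libraries most: their floor of 3 counts was up to 3.73 CPM.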

Other observations

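Acute phase proteins, which hepatocytes secrete in inflammation, went both ways. Of 23 tested, 5 were called higher and 5 lower (median log2 fold change −0.05). These shares, 21.7% each, were near the 15.6% higher and 13% lower of all genes. There were 8 higher and 2 lower when scaled by total library size (median 0.49) or with the 20 top genes left out. The higher count was 8 under the replicate block or without cont. replicate 2, and 3 without cont. replicate 3 or S351A replicate 2. The lower count was 3 without cont. replicate 2, 1 without S351A replicate 1 and 2 when S351A replicate 2 was left out. Besides Lcn2, the CPM of Cd14, a co-receptor for bacterial lipopolysaccharide, rose from 4.45, 2.11 and 1.43 in cont. to 40.2, 39.7 and 24.7 in S351A (4.05 ± 0.38, adjusted p = 2.38e-05). Saa3, a serum amyloid gene, fell from 11.4, 32.4 and 12.9 CPM to 2.30, 4.97 and 1.23 CPM (−2.73 ± 0.67, adjusted p = 0.00964), a call lost with limma-voom. In S351A replicates 1 and 3 it lay under the floor of 3 counts, so the size of its decrease is uncertain. Cd14 and Saa3 were named after their values were seen.

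Erythroid genes were lower where they were called. Of 4 tested, 2 were called lower and none higher. Hba-a2, an alpha-globin gene, was at 589, 758 and 205 CPM in cont. and 176, 175 and 126 CPM in S351A (−1.70 ± 0.42, adjusted p = 0.0103). Alas2, the erythroid enzyme that starts haem synthesis, was at 191, 44.7 and 111 CPM in cont. and 28.7, 17.4 and 22.2 CPM in S351A (−2.32 ± 0.46, adjusted p = 0.00309). All S351A livers lay below all controls for both genes. The part of blood left in the tissue was not tested.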
